A study of Mus musculus with 9 samples.

Results

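The 10 genes described here are the forkhead factors Foxo1, Foxo3 and Foxo4 and 7 genes of the muscle atrophy programme that they are known for: the ubiquitin ligase genes Fbxo32 and Trim63, the sestrins Sesn1 and Sesn3, Klf15, Pdk4 and Crebrf. They were chosen by name, and every probe set whose single gene symbol was one of the 10 was used. This gave 24 probe sets of the 45101 on the array, and 10 of 18193 genes. RNA came from BC3H1, a mouse brain tumour line with muscle-like properties, on 9 Affymetrix arrays. Rapamycin-sensitive cells received the solvent DMSO (RS_DMSO) or 100 nM rapamycin (RS_Rap) for 24 h, and the resistant line RR1, selected over 6 months in 1 uM rapamycin, remained in that concentration (RR_Rap). Each group had 3 arrays, and all cells were BC3H1 or derived from it. Only 1 resistant line was measured, so line, long culture and the drug cannot be told apart in its comparisons. Nothing in the labels tells separate cultures from repeat arrays of 1 culture, and p-values therefore reflect array-to-array spread that may be technical.

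FoxO proteins are transcription factors that the kinase AKT phosphorylates when insulin or growth factors signal, which keeps them out of the nucleus. When AKT activity is low they enter the nucleus and switch on genes of protein breakdown, stress resistance and fasting metabolism. In skeletal muscle their best known targets are Fbxo32 (atrogin-1) and Trim63 (MuRF1), ubiquitin ligases that mark muscle proteins for the proteasome. Rapamycin blocks mTOR complex 1, a growth kinase that lies downstream of AKT and also feeds back on insulin signalling.

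Signals are linear intensities as deposited, and a change is the difference of group means of log2(signal + 16), so it understates the change of dim probe sets. Changes are given ± SE (n = 3 arrays in each group). Probe sets entered the test when their mean exceeded the 40th percentile of all means, which corresponds to a signal near 22.2. A gene was represented by its probe set of highest mean, and was called at an adjusted p under 0.05 in a limma fit of all 27022 probe sets above that limit. Probes differ in brightness, so levels of different genes are not compared. The third DMSO array differed from the rest, with a median signal of 66.0 (33.3 to 44.2 elsewhere), and 17.4% of its probe sets lay below 16 (29.4% to 34.8%). In bulk RNA, fewer cells that express a gene and less RNA per cell cannot be told apart.

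The genes fell into different patterns over the 3 groups. In sensitive cells 24 h of rapamycin raised Fbxo32, Crebrf, Foxo3, Pdk4 and Foxo1. In the resistant line Pdk4, Foxo1 and Crebrf lay below the DMSO cells, Foxo3, Sesn1 and Sesn3 lay above them, and Fbxo32 differed from them by -0.17 ± 0.17 (adjusted p = 0.459). Of the 10 genes, 8 were tested. Rapamycin in sensitive cells raised 5 and lowered 0 of them, where 19.2% of 12715 genes rose and 14.5% fell. At an unadjusted limma p under 0.05 the counts were also 5 and 0, and the 3 remaining genes had adjusted p of 0.205 (Sesn1), 0.414 (Foxo4) and 0.542 (Sesn3). Without the third DMSO array 6 rose and 0 fell, and the resistant line kept counts of 3 and 3 and of 2 and 4. The resistant line had 3 higher and 3 lower than DMSO cells, against 25.5% and 25.3% of all genes, and 2 higher and 4 lower than sensitive rapamycin cells, against 25.9% and 29.9%. The comparisons with DMSO share those 3 arrays.

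The signals of 2 groups did not overlap for 5 of the 8 genes between sensitive rapamycin and DMSO cells, for 6 between resistant and DMSO cells and for 6 between the rapamycin groups. Over all tested genes the shares were 43.2%, 58.6% and 65.4%. The median change of the 8 genes was 0.49, -0.10 and -0.82 in these comparisons, beside 0.03, -0.07 and -0.08 over all genes.

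**Figure D1:**
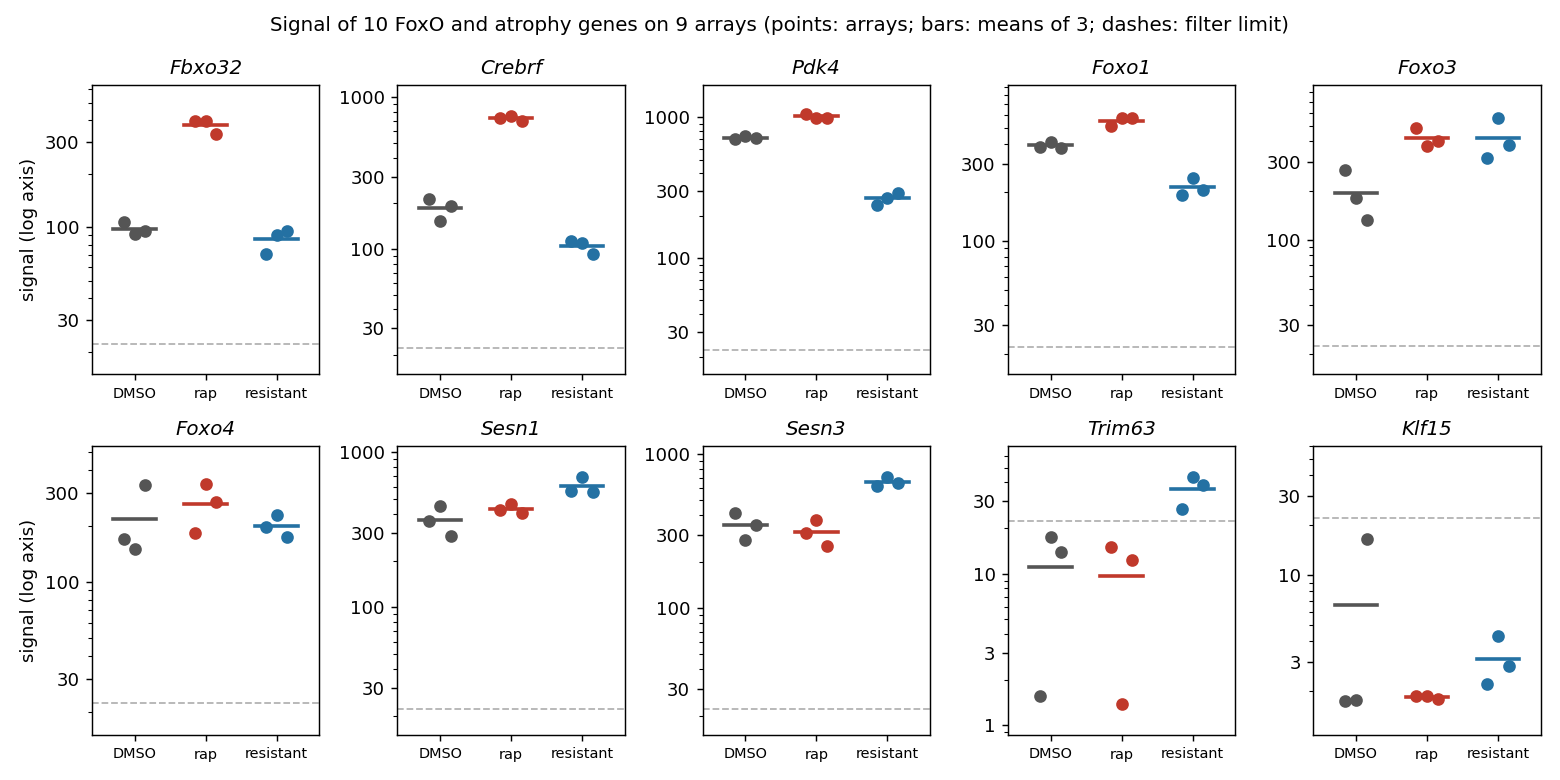
Signals of the 10 genes on the 9 arrays, on log axes that differ between panels, with the probe set of highest mean for each gene. Points are arrays, bars are means of 3 arrays, and dashes mark the filter limit at a signal of 22.2. Fbxo32 and Crebrf are high in the sensitive rapamycin group (332 to 394 and 693 to 753), Sesn3 is high in the resistant group (624 to 708), and Klf15 lies below the limit on every array.

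Foxo1, the FoxO gene best known for driving fasting metabolism, gave signals of 383, 412 and 377 on the DMSO arrays. After rapamycin the sensitive cells gave 512, 576 and 577, and the resistant cells gave 193, 246 and 207.5. The 3 groups did not overlap, with the resistant arrays lowest and the sensitive rapamycin arrays highest. The change was 0.49 ± 0.11 with rapamycin in sensitive cells (adjusted p = 0.00316), -0.82 ± 0.11 for resistant against DMSO cells (adjusted p = 1.29e-05) and -1.31 ± 0.11 for resistant against sensitive rapamycin cells (adjusted p = 2.69e-08). Of its 4 probe sets 3 were tested, and they derive from 1 source sequence. Against DMSO cells, 1416981_at was also lower in resistant cells (-0.65 ± 0.17, adjusted p = 0.00496). There 1416982_at overlapped and was not called (-0.37 ± 0.17, adjusted p = 0.0947), except without the first DMSO array (-0.60, adjusted p = 0.00352). All 3 tested probe sets were lower in resistant than in sensitive rapamycin cells, by -1.31, -1.004 and -0.52. The last, 1416982_at (adjusted p = 0.0185), lost its call without the second or the third sensitive rapamycin array or the third resistant array (adjusted p up to 0.0941). It also lost it with arrays centred on the 75th percentile (-0.39, adjusted p = 0.0635), with quantile normalization (-0.40, adjusted p = 0.0767) and without a trend in eBayes (adjusted p = 0.0712).

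The rise of Foxo1 in sensitive cells rested on the brightest probe set. The other 2 changed by 0.35 ± 0.17 (adjusted p = 0.149) and 0.15 ± 0.17 (adjusted p = 0.575), and 1416981_at was called only without the third DMSO array (0.53, adjusted p = 0.0211). With the mean of the probe sets of the gene the rise was 0.33 with an adjusted p of 0.0509. The brightest probe set, 1416983_s_at, carries the _s_at suffix, which Affymetrix gives to probes that can match several transcripts, as does the brightest Sesn1 probe set. The fourth, 1456529_at, lay at 3.36 to 35.9 and was not tested.

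Foxo3 is the FoxO factor most often linked to Fbxo32 in muscle. Its signals were 267, 179 and 132 in DMSO cells, 481.5, 377 and 399.5 in sensitive rapamycin cells and 317, 554 and 379 in resistant cells. Both rapamycin groups lay above all DMSO arrays and overlapped with each other. The change was 1.10 ± 0.21 in sensitive cells (adjusted p = 0.000648) and 1.07 ± 0.21 in resistant cells against DMSO (adjusted p = 0.000467), and the resistant cells differed from the sensitive rapamycin cells by -0.04 ± 0.21 (adjusted p = 0.904).

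A second Foxo3 probe set of the same source sequence, 1434832_at, moved less. It read 140, 176 and 254 in DMSO cells, where the third array was highest while that array was lowest for the brighter probe set. It rose by 0.57 ± 0.17 with rapamycin in sensitive cells (adjusted p = 0.0204). That call was lost without the first or second DMSO array or without the second or the third sensitive rapamycin array (adjusted p up to 0.106), and without a trend in eBayes (adjusted p = 0.0727). In resistant cells it changed by 0.33 ± 0.17 against DMSO (adjusted p = 0.144), and by 0.54 when the third DMSO array was left out (adjusted p = 0.00673) and by 0.42 with arrays centred on the 75th percentile (adjusted p = 0.047). The dimmest Foxo3 probe set, 1450236_at, lay at 1.65 to 16.7.

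Foxo4 had 1 tested probe set. It read 169, 149 and 332 in DMSO cells, 182, 336.5 and 267 in sensitive rapamycin cells and 196, 228 and 175 in resistant cells, and all groups overlapped. No comparison was called (0.30 ± 0.24, -0.04 ± 0.24 and -0.33 ± 0.24, adjusted p = 0.414, 0.926 and 0.297). Without the third DMSO array, whose Foxo4 signal was the highest of that group, Foxo4 rose by 0.63 in sensitive cells with rapamycin (adjusted p = 0.0268). The second probe set lay below 10 on 8 arrays and at 53.0 on the third DMSO array.

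Fbxo32 encodes atrogin-1, the substrate receptor of a ubiquitin ligase of wasting muscle. Its signals were 107, 91.2 and 94.8 in DMSO cells, 393.5, 394 and 332 in sensitive rapamycin cells and 70.5, 90.2 and 96.0 in resistant cells. All sensitive rapamycin arrays lay above the other 6, which overlapped. The rise in sensitive cells was 1.77 ± 0.17 (adjusted p = 4.91e-07), a ratio of mean signals of 3.82 and rank 10 among the rises of 12715 genes. Resistant cells lay -1.94 ± 0.17 from sensitive rapamycin cells (adjusted p = 3.34e-08).

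All 3 Fbxo32 probe sets rose in sensitive cells, by 1.77, 2.34 ± 0.27 and 1.53 ± 0.29 (adjusted p at most 0.000609). The latter 2 share a source sequence. They were dim on the third DMSO array (26.5 and 17.6, against 43.0 to 74.5 on the other DMSO arrays), and without that array they rose by 2.00 and 1.20. For the resistant cells the probe sets disagreed. Against DMSO cells 1448747_at changed by 0.42 ± 0.27 (adjusted p = 0.232), and the mean of the probe sets by 0.36 (adjusted p = 0.163). Against sensitive rapamycin cells 1448747_at was lower by -1.92 ± 0.27 (adjusted p = 1.10e-05). 1417522_at was above DMSO cells (0.84 ± 0.29, adjusted p = 0.0258), a call that did not hold when the third DMSO array was left out (0.51, adjusted p = 0.0739), nor without the second resistant array (adjusted p = 0.0791) or the third (adjusted p = 0.0928). It was lower than sensitive rapamycin cells by -0.69 ± 0.29 (adjusted p = 0.0588), which passed without the first or the third DMSO array (adjusted p = 0.0378 and 0.00721).

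Trim63 encodes MuRF1, a ubiquitin ligase of the sarcomere. Its single probe set read 1.56, 17.4 and 14.0 in DMSO cells, 15.1, 1.38 and 12.4 in sensitive rapamycin cells and 26.8, 43.7 and 38.7 in resistant cells. Each resistant array exceeded the other 6, and all signals of sensitive cells lay below the filter limit. Its mean was below the limit, so it was not tested. In a fit without that filter the resistant cells differed from DMSO cells by 1.00 ± 0.40 (adjusted p = 0.0825) and from sensitive rapamycin cells by 1.06 ± 0.40 (adjusted p = 0.0578). The order of groups seen for Fbxo32, highest in sensitive rapamycin cells, was not seen in the Trim63 signals.

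Sestrins are stress proteins that restrain mTOR complex 1 through the GATOR complexes, and Sesn3 is a direct FoxO target. Sesn3 read 415, 274.5 and 343 in DMSO cells, 308, 372 and 252 in sensitive rapamycin cells and 624, 708 and 643.5 in resistant cells. The sensitive groups overlapped and the resistant arrays lay above them. Resistant cells were higher by 0.92 ± 0.15 than DMSO cells (adjusted p = 5.98e-05) and by 1.06 ± 0.15 than sensitive rapamycin cells (adjusted p = 8.84e-06), and rapamycin in sensitive cells gave -0.14 ± 0.15 (adjusted p = 0.542). The second probe set was likewise higher in resistant cells, by 0.94 ± 0.17 and 0.74 ± 0.17.

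Sesn1, which p53 and FoxO factors are known to induce, read 361.5, 448 and 289 in DMSO cells, 427, 462 and 403 in sensitive rapamycin cells and 562, 690.4 and 557 in resistant cells. Resistant arrays lay above all sensitive ones. They were higher by 0.71 ± 0.14 than DMSO cells (adjusted p = 0.000345) and by 0.47 ± 0.14 than sensitive rapamycin cells (adjusted p = 0.00825), and the latter did not hold when the second resistant array was left out (0.37, adjusted p = 0.0574). In sensitive cells rapamycin gave 0.24 ± 0.14 (adjusted p = 0.205), which passed without the second DMSO array (0.39, adjusted p = 0.0375) and was 0.09 without the third (adjusted p = 0.628). Of its 4 probe sets, 3 were called higher in resistant than in DMSO cells (0.71, 0.83 and 1.00). Of these, 1438931_s_at overlapped, and lost its call without the first DMSO array or the second or the third resistant array (adjusted p up to 0.0664). It also lost it without a trend in eBayes (adjusted p = 0.0703). Against sensitive rapamycin cells 1438931_s_at (0.63 ± 0.24, adjusted p = 0.0435) overlapped and was called in 11 of 18 settings. There 1454699_at (0.54 ± 0.18, adjusted p = 0.0171) was called in 14 of 18. The fourth, 1444376_at, read 12.3 to 43.2 and was not called in any comparison.

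Pdk4 encodes a kinase that shuts off pyruvate dehydrogenase and so spares glucose in fasting. Its 1 probe set read 706, 731 and 709 in DMSO cells, 1061, 989.5 and 994 in sensitive rapamycin cells and 237, 269 and 289 in resistant cells. The 3 groups were separate, in the same order as Foxo1. Pdk4 rose by 0.49 ± 0.09 in sensitive cells (adjusted p = 0.000531). Resistant cells were lower than DMSO cells by -1.38 ± 0.09 (adjusted p = 2.08e-09) and lower than sensitive rapamycin cells by -1.88 ± 0.09 (adjusted p = 1.71e-11). Klf15, a zinc finger factor that glucocorticoids induce in muscle, read 1.75 to 4.28 on 8 arrays and 16.4 on the third DMSO array. It was below the limit on all 9 and was not tested.

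Crebrf encodes a leucine zipper protein that binds the transcription factor CREB3 and lowers its level. It read 214, 152 and 193 in DMSO cells, 726, 753 and 693 in sensitive rapamycin cells and 113, 110.3 and 92.6 in resistant cells, and the groups were separate. The rise in sensitive cells was 1.88 ± 0.14 (adjusted p = 2.07e-08), a ratio of mean signals of 3.89 and rank 6 among the rises of all genes. Resistant cells were lower than DMSO cells by -0.73 ± 0.14 (adjusted p = 0.000363) and lower than sensitive rapamycin cells by -2.61 ± 0.14 (adjusted p = 5.57e-11).

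The second Crebrf probe set, 1435169_at, rose by 1.83 ± 0.15 in sensitive cells (adjusted p = 8.98e-08), but in resistant cells it read 107 to 110.1 and differed from DMSO cells by -0.08 ± 0.15 (adjusted p = 0.724). The dimmer 1437114_at read 47.8 to 58.4 in DMSO cells, 95.4 to 113 in sensitive rapamycin cells and 27.9 to 32.7 in resistant cells. Its rise of 0.80 ± 0.26 (adjusted p = 0.0304) was lost without the first or second DMSO array or without any 1 of the sensitive rapamycin arrays (adjusted p up to 0.0989), and without the filter on low signals (adjusted p = 0.092). The lower level of resistant than of DMSO cells was thus called in 1 of 3 probe sets (1437114_at gave -0.59, adjusted p = 0.0789, and 0.00249 without a trend in eBayes), while all 3 were called lower than sensitive rapamycin cells.

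**Figure D2:**
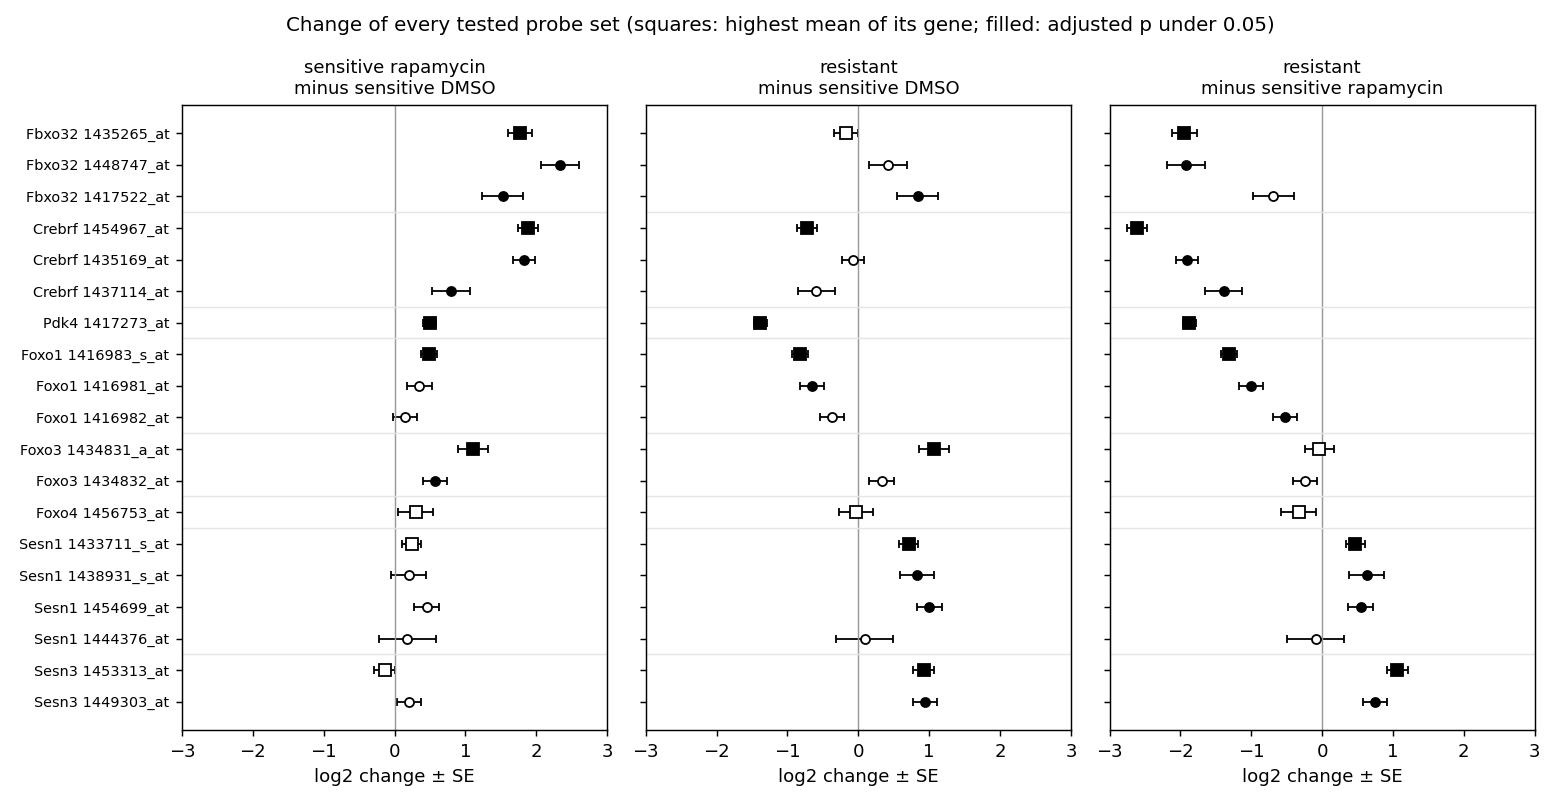
Log2 change ± SE of the 19 tested probe sets in the 3 comparisons, n = 3 arrays per group. Squares are the probe set of highest mean of a gene, and filled symbols have an adjusted p under 0.05. In the left panel all 3 Fbxo32 and all 3 Crebrf probe sets are filled and lie to the right, and in the right panel the filled Foxo1, Pdk4, Crebrf and Fbxo32 probe sets lie to the left and the filled sestrin probe sets to the right.

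Over all 19 tested probe sets, 10 rose and 0 fell with rapamycin in sensitive cells, where 16% of all tested probe sets rose and 12% fell (28% called). At an unadjusted limma p under 0.05 the counts were 11 and 0. Resistant cells had 7 higher and 4 lower than DMSO cells, where 21.7% were higher and 22% lower (43.7% called). Against sensitive rapamycin cells they had 5 higher and 9 lower, where 21.9% were higher and 25.8% lower (47.7% called).

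Promoters were read from RefSeq (GRCm38.p6, 250 bases before to 50 after a start), which gave 9 promoters for 8 of the 10 genes. Fbxo32 and Foxo4 had no promoter entry there, so theirs were not searched. The FoxO core motif GTAAACA, which on the opposite strand reads TGTTTAC, and the insulin response element CAAAACAA were searched on both strands. The FoxO core was found in Trim63 and in 1 of 2 Sesn1 promoters, and in 3.65% of all 32851 promoters of the same length. The insulin response element was found in Crebrf, and in 2.51% of all promoters. The matches below are shown because they lie in 1 gene below the filter (Trim63), 1 that was high in resistant cells (Sesn1) and 1 that rose with rapamycin in sensitive cells (Crebrf). Capitals mark the motif, and all are on the plus strand, 5′ to 3′.
Trim63, 120 bases from chr4:134314870-134314989, before the start: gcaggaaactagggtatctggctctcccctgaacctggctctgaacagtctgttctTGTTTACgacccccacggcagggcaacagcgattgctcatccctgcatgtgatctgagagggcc
Sesn1, 30 bases from chr10:41810584-41810613, after the start: agaaccttctacTGTTTACcagccttttgg
Crebrf, 30 bases from chr17:26715670-26715699, after the start: acccgtcaggaaggacataaaCAAAACAAa

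Crebrf had the largest rise of the 8 genes, and its 250 bases before the start are given in full. Capitals mark the E-box CACGTG, a motif that reads the same on both strands and is bound by factors such as MYC, USF and TFEB. It was added to the search after this sequence had been read. The E-box was found in Crebrf, in Klf15 and in 7.15% of all promoters. Crebrf holds it at both capitalised places. Klf15, which was below the filter limit on every array, also holds it more than once, with first bases at -228, -172 and -3 from the start. A match is a description of these letters and not of binding.
Crebrf, 250 bases from chr17:26715400-26715649: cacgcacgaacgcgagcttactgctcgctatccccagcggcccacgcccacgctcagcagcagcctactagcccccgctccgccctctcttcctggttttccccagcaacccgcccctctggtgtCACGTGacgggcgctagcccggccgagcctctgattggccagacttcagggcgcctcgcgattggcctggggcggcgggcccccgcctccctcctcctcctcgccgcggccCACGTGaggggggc

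Other genes of the pathway came from a list of 133 genes in 7 groups, of which 114 were tested. Rapamycin in sensitive cells raised 31 and lowered 15 of them (median change 0.08), beside 33.7% of all genes called. Resistant cells had 39 higher and 30 lower than DMSO cells (median 0.09), and 37 higher and 32 lower than sensitive rapamycin cells (median -0.08), beside 50.8% and 55.7% of all genes.

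Of 26 tested FoxO target genes outside the 10, 14 rose and 3 fell in sensitive cells, beside 19.2% and 14.5% of all genes, with a median of 0.31 (0.03 over all genes). Pik3ip1, an inhibitor of the kinase PI3K, read 293, 289 and 271.5 in DMSO cells, 873, 831 and 921 in sensitive rapamycin cells and 186, 211 and 147 in resistant cells. It rose by 1.57 ± 0.12 (adjusted p = 3.73e-08) and was lower in resistant than in DMSO cells by -0.62 ± 0.12 (adjusted p = 0.000473), the same order of groups as Crebrf. Txnip, which restrains glucose uptake and thioredoxin, rose by 1.01 ± 0.16 and was lower in resistant cells by -2.59 ± 0.16 (adjusted p = 6.11e-10). The autophagy genes of the list did not move together. Atg14 (1.23 ± 0.29), Gabarapl1 (0.59 ± 0.10) and Map1lc3b (0.60 ± 0.09) rose, Bnip3 fell by -0.55 ± 0.09 (adjusted p = 9.48e-05), and Ulk1 changed by 0.32 ± 0.14 (adjusted p = 0.116). These 5 were chosen after their values were seen. Cdkn1a, the p21 gene, fell by -1.47 ± 0.16.

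In resistant cells 6 of the 26 target genes were higher and 10 lower than in DMSO cells, beside 25.5% and 25.3% of all genes, with a median of -0.30 (-0.07 over all genes). Rictor, the subunit that defines mTOR complex 2 and a FoxO target, was higher by 1.59 ± 0.12 in resistant cells and by 0.76 ± 0.12 in sensitive cells with rapamycin, though the latter was lost when its probe sets were averaged (0.43, adjusted p = 0.0633). Cdkn1a was lower by -0.60 ± 0.16, a call lost on averaging its probe sets (-0.45, adjusted p = 0.126). Cdkn1b, the p27 gene, rose by 0.50 ± 0.10 in sensitive cells (0.56 when its probe sets were averaged, adjusted p = 0.063).

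**Figure D3:**
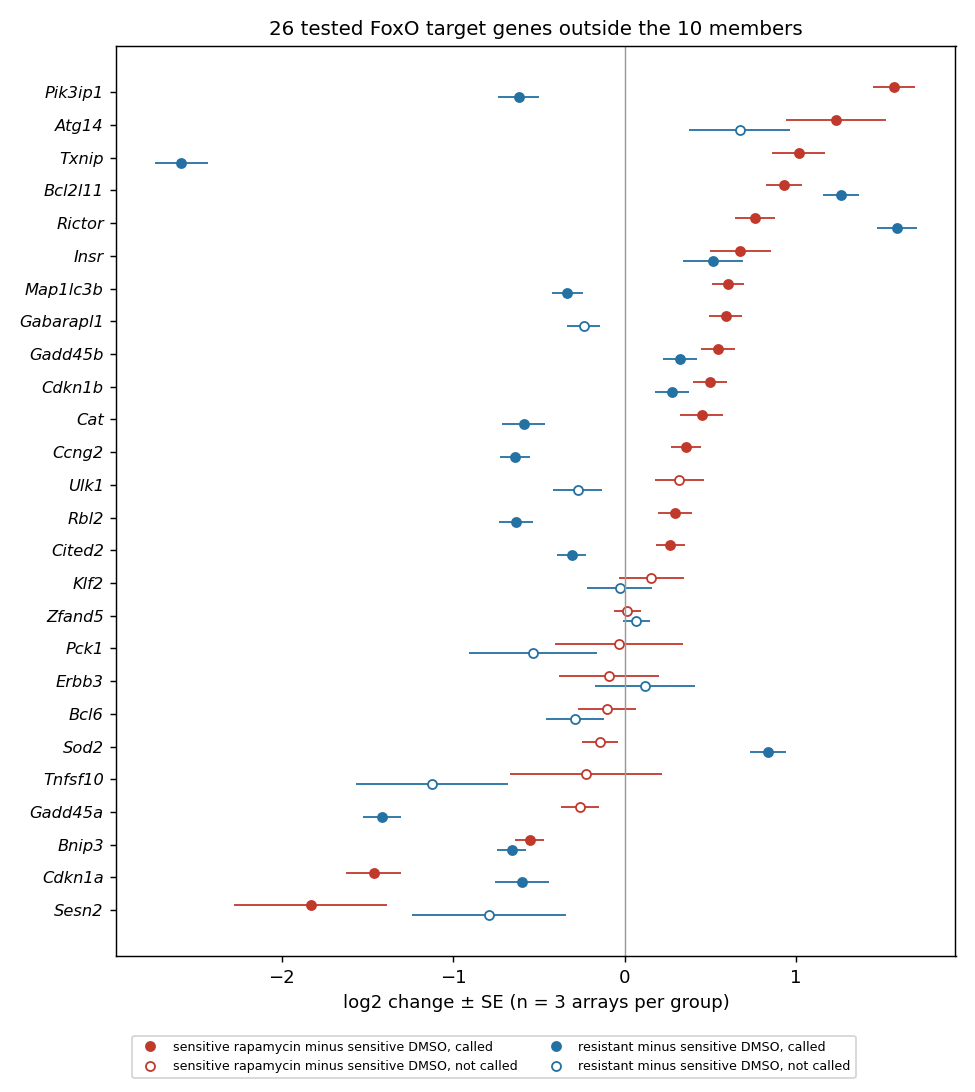
Log2 change ± SE of the 26 tested FoxO target genes outside the 10, ordered by the change with rapamycin in sensitive cells (red), with the resistant line against DMSO cells in blue, n = 3 arrays per group. Filled circles have an adjusted p under 0.05. Of the red circles 14 are filled to the right of 0 and 3 to the left, and of the blue ones 6 and 10, and both series share the DMSO arrays.

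Of the atrophy genes outside the 10, 23 were tested. Rapamycin raised 5 and lowered 3 in sensitive cells, shares close to the 19.2% and 14.5% of all genes. Resistant cells had 9 higher and 3 lower than DMSO cells, beside 25.5% and 25.3% of all genes. Trim54, which encodes MuRF3, a relative of Trim63, read 43.3, 7.32 and 26.1 in DMSO cells, 26.6, 9.67 and 5.46 in sensitive rapamycin cells and 217.5, 305 and 340 in resistant cells (2.95 ± 0.37 against DMSO, adjusted p = 4.67e-06). It passed the filter through the resistant arrays, so its call is a description. The activin receptor gene Acvr2b (1.13 ± 0.27) and follistatin, Fst, which blocks myostatin and activin (1.22 ± 0.35), were also higher. Fst was not called when its probe sets were averaged (adjusted p = 0.0588). It averaged 42.6 in DMSO cells, 21.6 in sensitive rapamycin cells, below the filter limit, and 112 in resistant cells. Eif4ebp1, a translation inhibitor induced in atrophy, fell in sensitive cells by -0.71 ± 0.09 and was 1.00 ± 0.09 higher in resistant than in sensitive rapamycin cells.

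Among kinases and cofactors that act on FoxO proteins, 26 were tested. In sensitive cells 4 rose and 2 fell, no larger shares than the 19.2% and 14.5% of all genes. In resistant cells 13 were higher and 3 lower than in DMSO cells, beside 25.5% and 25.3%. Sgk1, a kinase that phosphorylates Foxo3 as AKT does, was lower in resistant than in DMSO cells by -1.90 ± 0.10 (adjusted p = 6.73e-11). It changed by 0.14 ± 0.10 in sensitive cells (adjusted p = 0.332). Akt1 and Akt2 went the other way from Sgk1 in resistant against DMSO cells. Akt2 was higher there by 0.51 ± 0.14 (adjusted p = 0.00573) and was called in 20 of 20 settings. Akt1 was higher by 0.30 ± 0.09 (adjusted p = 0.0151) and was called in 16 of 20. Skp2, a ubiquitin ligase subunit that targets FoxO1 and p27, fell by -1.44 ± 0.09 in sensitive cells and was higher by 1.82 ± 0.09 in resistant cells. Prkaa2, a catalytic subunit of AMPK, and Prmt1, a methyltransferase of FoxO1, were higher in resistant cells by 1.34 ± 0.22 and 1.08 ± 0.10. The brightest Akt2 probe set changed by -0.07 ± 0.14 in sensitive cells (adjusted p = 0.776), but the mean of its probe sets rose by 0.64 (adjusted p = 0.0277).

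The glucocorticoid receptor gene Nr3c1 rose by 0.47 ± 0.11 in sensitive cells (adjusted p = 0.0535 without a trend in eBayes) and was lower in resistant cells by -0.57 ± 0.11. Of the 9 tested genes of that group 3 rose and 2 fell in sensitive cells, beside 19.2% and 14.5% of all genes. Its targets moved apart, since Cebpd rose by 0.84 ± 0.13 while Fkbp5, a chaperone partner of the receptor, fell by -1.23 ± 0.11. Resistant cells had 2 higher and 5 lower than DMSO cells, beside 25.5% and 25.3% of all genes, with Cebpd at -1.74 ± 0.13.

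In the sestrin and GATOR group of 11 tested genes, 0 rose and 3 fell in sensitive cells, beside 19.2% and 14.5% of all genes. At an unadjusted limma p under 0.05 the counts were 3 and 3. The falls were of Sec13, Sesn2 and Seh1l, the last named after its values were seen. Sesn2, a further sestrin that is also on the target list, read 101, 197 and 322.5 in DMSO cells and 26.4, 16.4 and 119 after rapamycin, and the groups overlapped (-1.83 ± 0.45, adjusted p = 0.00496, and 0.0563 without a trend in eBayes). Resistant cells read 141, 106 and 68.2, and differed from DMSO cells by -0.79 ± 0.45 (adjusted p = 0.171), which passed without the first DMSO array (-1.20, adjusted p = 0.0481). Against DMSO cells 2 of the 11 were higher and 3 lower in the resistant line, shares near the 25.5% and 25.3% of all genes. The arginine sensor gene Castor1 (-1.97 ± 0.25) and Castor2 (-0.90 ± 0.16) were lower there. So was Sec13, a shared subunit of GATOR and the nuclear pore (-0.77 ± 0.08), which also fell in sensitive cells (-0.66 ± 0.08). Depdc5 was higher by 0.85 ± 0.27, a call lost without the first DMSO array (adjusted p = 0.085) and, as the average over probe sets, at 0.35 (adjusted p = 0.468).

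The fuel group around Pdk4 and Klf15 had 18 tested genes, of which 3 rose and 3 fell in sensitive cells, close to the 19.2% and 14.5% of all genes. In resistant cells 8 were higher and 4 lower than in DMSO cells, beside 25.5% and 25.3% of all genes. Pdk1, another kinase of pyruvate dehydrogenase, ran opposite to Pdk4: it fell by -0.68 ± 0.10 in sensitive cells and was higher by 1.36 ± 0.10 in resistant cells. Pdhb, a subunit of the enzyme that Pdk4 blocks, was higher in resistant cells by 0.85 ± 0.08, while Pdha1, its catalytic subunit and named after its values were seen, was lower by -0.34 ± 0.07 (adjusted p = 0.00109). Bckdha, of branched-chain amino acid breakdown, was higher in both rapamycin groups (1.38 ± 0.11 and 1.13 ± 0.11). The coactivator gene Ppargc1a was higher in resistant cells by 1.63 ± 0.40. It averaged 43.7 in DMSO cells, 16.85 in sensitive rapamycin cells, below the filter limit, and 156 in resistant cells.

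Of the CREB3 family, whose founder Crebrf binds, 4 of 5 genes were tested. In resistant cells 3 of the 4 were lower than in DMSO cells, where 25.3% of all genes were lower. Creb3l1 was lower by -2.67 ± 0.11, Creb3 by -1.47 ± 0.09 and Creb3l2 by -1.08 ± 0.10, beside -0.73 for Crebrf. In sensitive cells 2 of the 4 rose, where 19.2% of all genes rose. Creb3l2 rose by 0.42 ± 0.10, which was lost when its probe sets were averaged (adjusted p = 0.104). Creb3 rose by 0.32 ± 0.09, which was lost without the first sensitive rapamycin array (adjusted p = 0.0557).

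Genes with the most similar profile were found by the root mean square difference of log2 values over the 9 arrays, each gene centred on its own mean, among 11990 genes. For Fbxo32 they were Adamtsl4 (0.20), the mitochondrially encoded ND5 (0.21) and Mxra8 (0.22). For Foxo1 they were Armcx3 (0.08), Cflar (0.09) and Tradd (0.09), the last 2 being genes of death receptor signalling. For Foxo3 they were Ltbp4 (0.20), Man2c1 (0.23) and Sdc3 (0.25), with changes of 0.90 to 1.26 against DMSO cells in the 2 rapamycin groups. The measure uses all arrays of all groups and is a description.

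The muscle-like label was checked on marker lists, with the probe set of highest mean for each gene. Of 10 skeletal muscle genes 7 passed the filter, Myog and Ckm only through the resistant arrays, so their levels are a description. Myod1 (18.8 to 23.8 in group means), Myf6 (13.0 to 35.8) and Chrnd (3.33 to 10.0) did not pass, while Myf5 read 529 to 654. Chrna1, a subunit of the muscle acetylcholine receptor, averaged 529 in DMSO cells, 467 in sensitive rapamycin cells and 15.2 in resistant cells. The list did not move as one, since Myog, which encodes the factor myogenin, averaged 6.50, 17.8 and 98.9 and the creatine kinase gene Ckm 26.5, 18.1 and 77.4 in the same order of groups. Of 6 smooth muscle genes 5 passed. The summed smooth muscle signal was 22330 to 30270 in DMSO arrays, 27160 to 27720 in sensitive rapamycin arrays and 7308 to 8961 in resistant arrays, and the summed skeletal muscle signal was 2347 to 2839, 2250 to 2572 and 1497 to 1558. These sums are thus lowest in the resistant line, where Pdk4, Foxo1 and Crebrf were lower and the sestrins higher, and their part in those results was not tested. Of 4 neuronal and 5 measured glial genes, 3 of each passed, with sums of 175 to 529 and 50.4 to 362 over the arrays. The leukocyte and endothelial lists had 0 of 3 genes above the filter, with Ptprc, Cd3e, Pecam1 and Cdh5 between 6.33 and 37.0 in group means.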

How the data were processed

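The authors deposited linear intensities, 1 signal per probe set and array, made with GCOS 1.4 per the submitters' processing notes. How probe signals were summarised is not given in the sources used here. On every array there was a mean signal of 250.0 after trimming 2% at either end, read from the values. Of 45101 probe sets, 64 controls were left out, 34945 had 1 gene symbol, 932 several and 9160 none, and symbols came from the platform annotation. The values were kept as deposited and analysed as log2(signal + 16), since the 75th percentiles of the arrays differed by 0.17 in log2, under a limit of 0.2. All 27022 probe sets above the 40th percentile were fitted over 9 arrays with limma 3.58.1 in R 4.3.3 (lmFit, eBayes with a mean-variance trend), with Benjamini-Hochberg adjustment within each of 3 comparisons. The fit was tested on simulated data. Groups came from sample titles, and the number of arrays limits the precision. Alternatives were other pseudocounts, scalings, filters and summaries of probe sets, eBayes without a trend, a replicate block, and leaving out each array. Members, lists and the rule for named genes (all members, up to 4 called genes per list with the largest change and separate groups, further family genes, and the 3 most similar profiles) were chosen with earlier results of these data known. Hybridization batches were not analysed here.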

Additional observations from a re-analysis of the deposited data

How the results depend on the processing

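Under 19 alternatives the counts of the 10 genes called stayed within 1.5 times, with 1 exception. Rapamycin in sensitive cells raised 4 to 6 of them and lowered 0. Resistant cells had 3 higher and 3 lower than DMSO cells throughout, and 4 lower than sensitive rapamycin cells. The 2 that were higher than in sensitive rapamycin cells became 1 without the second resistant array (range 1 to 2 when an array is left out). The FoxO network list kept counts of 21 to 35 higher and 12 to 18 lower with rapamycin in sensitive cells, and all genes called numbered 3395 to 4523, 5693 to 6581 and 6491 to 7601. Of the named genes only Akt2 changed sign with a call, at 0.64 in sensitive cells with the mean of its probe sets. Centring arrays on their 75th percentile moved the median of all genes between the rapamycin groups from -0.08 to 0.05, and 54.55% of called genes there were then higher, against 46.42%. Of the values of the 8 tested members, 452 stayed on their side of the threshold, 2 were lost and 2 gained. For other probe sets of the members, 36 calls were lost and 11 gained. The replicate block left the member counts at 5 and 0, 3 and 3, and 2 and 4, and gave 30 and 15, 38 and 29, and 38 and 32 for the network list. With the block the Crebrf probe set 1437114_at had an adjusted p of 0.0519 for its rise in sensitive cells, against 0.0304 without it. Deviations from group means correlated at -0.08 to 0.01 over 9 pairs of same-numbered arrays, and at -0.02 to 0.06 over 18 pairs of other numbers. Whether same-numbered arrays shared a batch or culture was not tested. Signals near the filter limit set what Trim63 and Klf15 can show.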
